A study of Mus musculus with 24 samples.

Results

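Npas4, Arnt, Arnt2 and Npas3 encode transcription factors of the bHLH-PAS family, and their RNA was followed here in cultured mouse cortical neurons at rest and after depolarization with KCl. The 4 genes were chosen by name, and the estimated read counts of their transcripts were summed in each of 24 libraries. They are 4 of the 55177 genes that the matched transcripts make up, and all 4 passed the low-count filter in every fit. Proteins of this family bind DNA as dimers. Npas4 is an activity-dependent subunit that neurons make after calcium enters through voltage-gated channels and NMDA receptors, and it binds DNA together with Arnt or Arnt2, which are also the shared partners of the hypoxia-inducible factors and of the aryl hydrocarbon receptor. Arnt2 is the form known from neurons. Npas3 is a further neural family member that needs an Arnt-type partner of its own.

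The neurons came from the cortex of embryos at day 16.5, and all cultures, at rest or stimulated, were silenced overnight with 1 µM tetrodotoxin and 100 µM D-AP5. For stimulation, 50 mM KCl was applied for 30 min. Cultures were taken at 2 ages. At 7 days in vitro (DIV7), wild-type neurons in 0.1% DMSO were left at rest (2 libraries) or given KCl (2 libraries), and their libraries were made from poly(A) RNA. At DIV18 the libraries were of total RNA depleted of ribosomal RNA. One set had a guide RNA with no target (NT, 2 libraries at rest and 2 under KCl). The other sets carried guides against Smarcc2, which encodes a core subunit of the BAF chromatin remodelling complex. These knockout (KO) cultures also received an empty vector (3 at rest, 3 under KCl), wild-type Smarcc2 (KO with WT, 2 at rest, 3 under KCl), the serine-to-glutamate form S586E (3, at rest only) or the serine-to-alanine form S586A (2, under KCl only). The labels' protocol treats the cortex of each embryo as a biological replicate. The knockout was made in culture with CRISPR guides, and the share of cells that carried each construct was not given in the sources used here.

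Depth ran from 24536056 to 30135576 estimated counts per library at DIV7 and from 14510199 to 24024959 at DIV18. Levels are TMM-normalised counts scaled to library size (CPM), and the DIV7 and DIV18 libraries were normalised separately. Smarcc2 followed the labels: it stood at 237 to 283 CPM in NT, 47.1 to 64.1 CPM in KO with vector and 737 to 1340 CPM in the addback cultures. Neuron markers were detected in all libraries, and the summed TPM of 4 microglial markers and of 5 fibroblast or vessel markers was at most 5.25 in any library. Age, library kind, guide RNA and DMSO differ together between DIV7 and DIV18 and cannot be told apart, so levels are not compared between the ages. In bulk RNA, fewer cells of a type and less RNA per cell cannot be told apart either.

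Npas4 lies on chromosome 19 at 4984355-4990316 on the minus strand (GRCm38, GENCODE M21) and has 3 annotated transcripts, which differ at their ends and after exon 4. The sequences across the end of exon 4 show the second of these differences. In each line the lower-case letters are the last 15 bases of exon 4 and the capitals are the 15 bases that follow it in that transcript.
Npas4-201: ggacgtttctgaaagTGTCCTAATCTACCT
Npas4-202: ggacgtttctgaaagGTAAGCCCAAAGTGT
Npas4-203: ggacgtttctgaaagTGGCTGAAAGTGGAG
The annotated 5′ ends are at 4990316, 4989971 and 4989904 in Npas4-201, Npas4-202 and Npas4-203, and Npas4-203 ends at 4985002, short of the 4984355 of the other forms. Npas4-201 is the protein-coding form, with 8 exons and 3622 bases, and it runs on into exon 5. Npas4-202 keeps introns 4 (187 bases) and 5 (327 bases), so its capitals are the first bases of intron 4. Npas4-203 leaves out exon 5 (110 bases, chr19:4987778-4987887) and is annotated as a target of nonsense-mediated decay.

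The promoters of Npas4 and Arnt both hold the TGACG core of the cyclic-AMP response element (CRE), the site bound by CREB, which calcium entry activates. Promoters were read from RefSeq on GRCm38.p6, from 250 bases before to 50 bases after the start site, and all 4 genes had an entry. Short stretches are shown, with the matched letters in capitals, because these are the members whose RNA changed at DIV7.
Npas4, chr19:4990129-4990158, minus strand: ccgttcgaCGTCAcgggaTGACGtcggaag
Npas4, chr19:4989980-4990009, minus strand: tgtcaggagctaTATAAggcggatcgaggc
Arnt, chr3:95434140-95434169, plus strand: ttgcatttcacTGACGTCAatttggttatg
The start site used for Npas4 matches the annotated 5′ end of Npas4-202 (4989971). The coding form Npas4-201 begins further upstream, at 4990316, so both Npas4 stretches lie inside its annotated span. Counted from the start used, the TGACG core of Npas4 occurred at -179 on the opposite strand (read as CGTCA above). It also occurred at -169 on the gene's strand, and TATAA stood at -26. In Arnt the full palindrome TGACGTCA began at -239, where it also gives 2 of the 3 overlapping or nearby matches to TGACG, and the third lay at -214. Searched on both strands, TGACGTCA was present in 1.79% of 32851 promoter windows, TGACG in 20.8% and TATAA in 24.9%. The Arnt2 window held none of these letters, and neither did that of Npas3. The E-box-like core ACGTG, found in 19.6% of windows, occurred once among the 4 genes, in Npas3 at -105 on the opposite strand, and no CArG box (1.63% of windows) was found in any of them. A match is a description of the letters only.

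Npas4 was nearly silent in resting cultures and was higher in every KCl library than in any resting library of the same age. At DIV7 the resting libraries held 3.75 and 4.83 CPM, and the KCl libraries held 178.2 and 183.2 CPM. The group means rose 42.1-fold, and the fitted log2 fold change was 5.40 (SE 0.09, adjusted p = 3.62e-07). Among the 19822 genes tested at DIV7, 32 had a larger log2 rise. Of the 4 genes, 2 were called in this comparison, Npas4 higher and Arnt lower, where 17% of all genes tested were called.

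In NT cultures at DIV18, Npas4 stood at 1.70 and 0.780 CPM at rest and at 53.3 and 13.1 CPM under KCl. The lower KCl library was still 7.69-fold above the higher resting library, so the groups did not overlap. The log2 fold change of 4.73 (SE 0.79) nevertheless missed the threshold (adjusted p = 0.0519). By edgeR 0 of the 4 genes were called in NT, with 1 at an unadjusted p under 0.05 and 1 called by DESeq2, in each case Npas4, where 0.00955% of all genes tested were called. Without KCl replicate 2 the log2 fold change was 5.40 and passed (adjusted p = 0.00716), and DESeq2 gave 4.74 (adjusted p = 2.15e-05). Without KCl replicate 1 it was 3.38 (adjusted p = 0.411), and in a fit of only these groups 4.73 (adjusted p = 0.286).

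In KO with vector, the resting libraries held 0.485, 0.686 and 1.27 CPM of Npas4, and the KCl libraries 42.1, 48.2 and 25.6 CPM. The groups did not overlap, and the lowest KCl library exceeded the highest resting library 20.1-fold. Npas4 rose by 5.60 on the log2 scale (SE 0.71, adjusted p = 0.00139), the only one of the 4 genes called, where 0.0716% of genes tested were. It was called under each of the 14 alternatives run for this comparison, with values from 5.33 to 6.03.

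In KO with WT, the resting libraries held 0.617 and 0.522 CPM, and the KCl libraries 108, 46.8 and 16.8 CPM. The KCl libraries were spread widely, and all lay above both resting libraries. Npas4 rose by 6.63 on the log2 scale (SE 0.87, adjusted p = 0.00357), again the only one of the 4 genes called, where 0.043% of genes tested were. The call was lost in a fit of only these groups (6.64, adjusted p = 0.109) and without resting replicate 1 (adjusted p = 0.194) or 2 (adjusted p = 0.116).

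**Figure D1:**
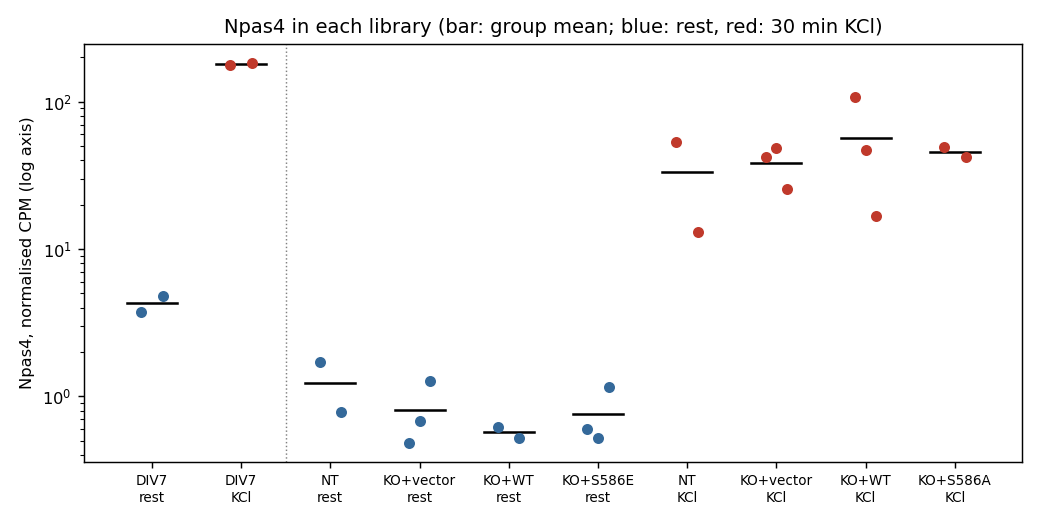
Npas4 in each of 24 libraries, in TMM-normalised CPM on a log axis, by group; points are libraries and bars are group means, with DIV7 left of the dotted line and normalised apart from DIV18. Resting libraries at DIV18 lie between 0.485 and 1.70 CPM and KCl libraries between 13.1 and 108 CPM.

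The size of the Npas4 rise could not be told apart between cultures. The response in KO with vector minus that in NT was 0.87 log2 units (SE 1.18, adjusted p = 0.875). KO with WT minus KO with vector was 1.04 (SE 1.34, adjusted p = 1.00), and KO with WT minus NT was 1.91 (SE 1.31, adjusted p = 1.00). The response at DIV7 minus that in NT was 0.69 (SE 1.06, adjusted p = 0.909). Both edgeR and DESeq2 called 0 of the 4 genes in each of these 4 comparisons, and only Arnt, in the last, had an unadjusted p under 0.05. Of all genes tested, edgeR called 0% in the first 3 and 1.82% in the last. With standard errors of 1.06 to 1.34 log2 units, differences of a few-fold were not detectable at this number of libraries.

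Direct comparisons between constructs at a matched state gave no call for Npas4 either. KO with vector against NT differed by -0.65 at rest (SE 1.05, adjusted p = 0.782) and by 0.22 under KCl (SE 0.54, adjusted p = 0.889). At rest, S586E against WT differed by 0.39 (SE 1.24, adjusted p = 0.935), from S586E libraries at 0.604, 0.520 and 1.15 CPM. Under KCl, S586A against WT differed by -0.32 (SE 0.53, adjusted p = 0.894), from S586A libraries at 49.2 and 42.3 CPM. Resting values rest on 9 to 40 counts of Npas4 per DIV18 library. In the order of group means, KO with WT, KO with S586E, KO with vector and NT followed each other at rest (0.569 to 1.24 CPM), and NT, KO with vector, KO with S586A and KO with WT under KCl (33.2 to 57.1 CPM). Each group's range overlapped that of its neighbour, other than at the step from the resting to the KCl groups.

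The same DIV18 libraries that were low for Npas4 under KCl were low for other immediate-early genes. Fos, a subunit of the AP-1 factor, stood at 113 and 38.5 CPM in the NT pair, where Npas4 was 53.3 and 13.1. In KO with WT it stood at 197, 106 and 32.7 CPM, in the order of Npas4 at 108, 46.8 and 16.8. Among KO with vector libraries, replicate 3 was lowest for Npas4 (25.6 CPM), Fos (51.2 CPM), Fosb (80.6 CPM) and Arc (129 CPM) alike. The spread among KCl replicates was therefore shared by these genes, and what set it was not tested.

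Across the 20 DIV18 libraries, the 3 genes whose pattern was most like that of Npas4, of 13281 compared, were Fosb, Fos and Arc. Since resting and KCl libraries form separate clusters, the correlation is given within the 10 KCl libraries, where the same 3 genes ranked first. Pearson's r of log2(CPM + 0.5) was 0.980 with Fosb, an AP-1 subunit, 0.978 with Arc, which encodes a synaptic capsid-like protein, and 0.977 with Fos. These libraries share groups, preparation and the KCl step, and the values are a description.

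**Figure D2:**
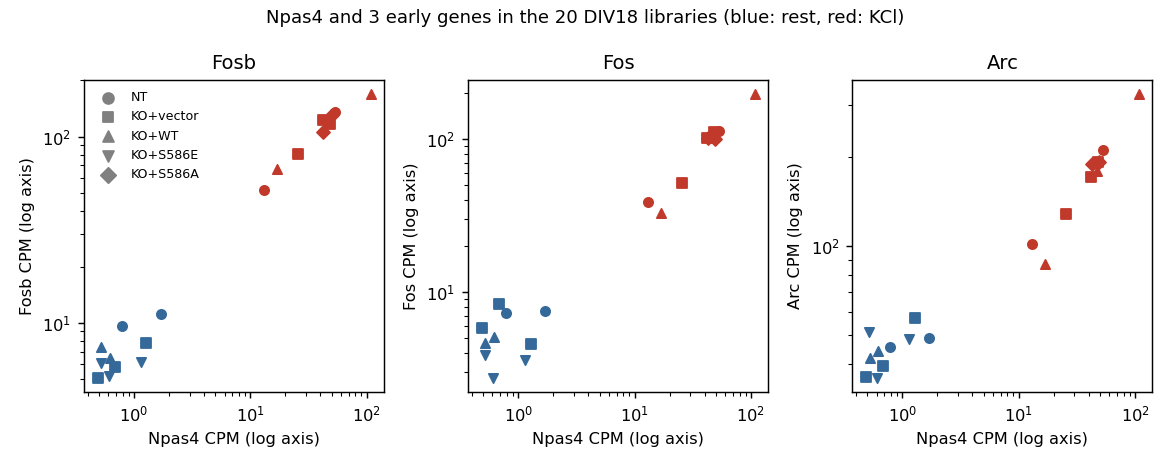
Npas4 against Fosb, Fos and Arc in the 20 DIV18 libraries, in CPM on log axes; each point is a library, blue at rest and red under KCl, with the marker shape giving the construct. The KCl libraries fall along a line from the NT library with Npas4 at 13.1 CPM to the KO with WT library at 108 CPM.

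Among 6 early genes taken as a reference, all rose at DIV7 with Npas4: Fosb by 8.01, Fos by 7.23, Nr4a1 by 5.77, Egr1 by 5.20, Junb by 4.99 and Arc by 3.23 on the log2 scale. At DIV18 the order differed, and Npas4 had a larger fitted log2 fold change than each of the 6. No test was made between genes. The Npas4 values at DIV18 had SEs of 0.71 to 0.87 and started from 9 to 40 counts per resting library. Npas4 rose by 5.60 in KO with vector, where Fosb rose by 4.11, Fos by 3.80, Egr1 by 2.34, Arc by 1.90 and Junb by 1.74. In KO with WT, 3 of the 6 were called, Fos (4.52), Fosb (4.10) and Egr1 (2.37), beside Npas4 at 6.63. In NT, Fosb alone was called (3.17). At rest at DIV18 the 6 genes ranged from 2.03 CPM (Nr4a1) to 67.6 CPM (Egr1), above every resting value of Npas4.

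The annotated forms of Npas4 took different shares of its TPM, a unit that allows for transcript length, in the DIV7 and DIV18 libraries. Under KCl at DIV7, the coding form Npas4-201 held 50.2% and 53.3%, the exon-5-skipping form Npas4-203 held 36.3% and 32.4%, and the intron-retaining form Npas4-202 held 13.4% and 14.3%. In the 10 KCl libraries at DIV18, Npas4-202 ranged from 31.0% to 74.1% with a median of 44.4%, above both DIV7 libraries in each. Npas4-201 ranged there from 7.7% to 26.8% with a median of 21.5%, below both DIV7 libraries in each. Npas4-203 overlapped between the ages, at 18.2% to 43.9% at DIV18.

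The estimated counts behind these shares were 842 and 843 for Npas4-202 in the DIV7 libraries and 132 to 939 in the DIV18 libraries. The largest share of Npas4-202, 74.1%, was in KO with vector replicate 3, where the coding form held 31.1 estimated counts. At rest, a library at DIV18 held at most 28.8 estimated counts of any form, so shares at rest are not described. These forms share most of their exons, and shares are the authors' estimates from the reads that tell them apart. Poly(A) selection and total RNA differ with age here, and their parts in the shift cannot be told apart.

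**Figure D3:**
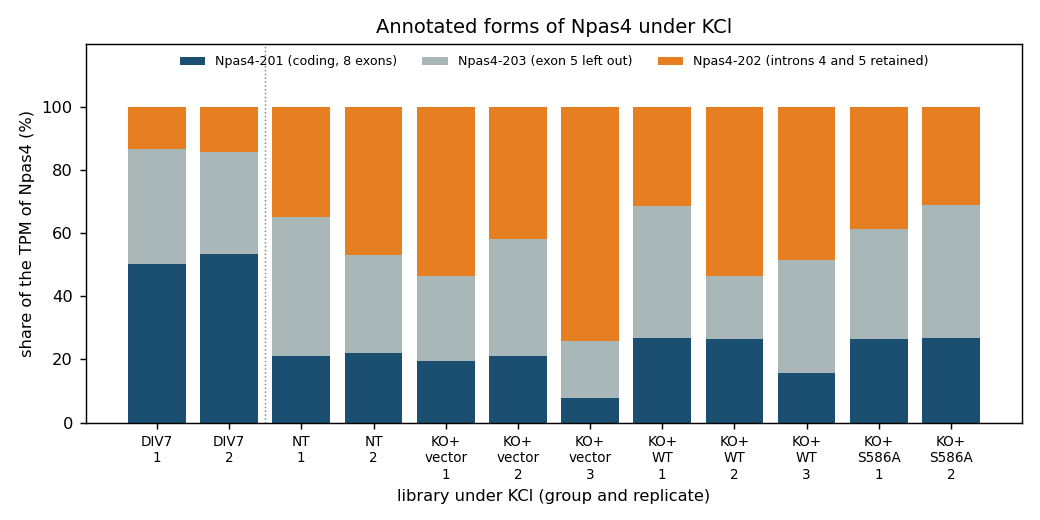
Share of the TPM of Npas4 held by its 3 annotated forms in the 12 KCl libraries (stacked bars, in percent), with the 2 DIV7 libraries left of the dotted line. The intron-retaining form is at 13.4% and 14.3% at DIV7 and at 31.0% to 74.1% at DIV18.

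Arnt, the partner expressed across most tissues, lies on chromosome 3 at 95434388-95497240 on the plus strand, with 11 annotated transcripts. It fell under KCl at DIV7 and showed no call at DIV18. At DIV7 its resting libraries held 20.8 and 20.8 CPM, and its KCl libraries 13.7 and 14.4 CPM. The groups did not overlap, the mean fell by 32.4%, and the log2 fold change was -0.57 (SE 0.08, adjusted p = 0.00573). The call held in each of the 10 alternatives run, with values from -0.63 to -0.53. At DIV7, 9.67% of all genes tested were called lower.

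At DIV18 Arnt kept a narrow range, from 18.7 to 25.6 CPM over 20 libraries. In NT it held 22.5 and 23.4 CPM at rest and 23.6 and 21.9 CPM under KCl, which overlap (log2 fold change -0.01, SE 0.12, adjusted p = 1.00). KO with vector held 22.7, 22.2 and 22.7 CPM at rest and 25.6, 23.2 and 23.8 CPM under KCl. These did not overlap but differed by 0.10 (SE 0.10, adjusted p = 0.771). KO with WT held 21.6 and 22.2 CPM at rest and 23.4, 20.1 and 22.6 CPM under KCl (0.01, SE 0.11, adjusted p = 0.997). The DIV7 response minus the NT response was -0.54 (SE 0.17, adjusted p = 0.128), so the fall at DIV7 was not shown to differ from the NT value.

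The fall at DIV7 was not spread evenly over the transcripts of Arnt. Arnt-202 (4325 bases) went from a mean of 319 to 205 estimated counts, with TPM of 5.10 ± 0.38 (SD, n = 2) at rest and 2.99 ± 0.01 (SD, n = 2) under KCl. Arnt-203 (2699 bases) went from 111 to 131 estimated counts, with TPM of 2.93 ± 0.05 and 3.14 ± 0.39 (SD, n = 2 each). Its share of the gene's TPM was 21.5% and 22.2% at rest and 35.3% and 39.1% under KCl. No test was made between transcripts.

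Arnt2, the partner known from neurons, lies on chromosome 7 at 84246278-84410176 on the minus strand, with 13 annotated transcripts. Per length (TPM) it was the highest of the 4 genes in every resting library, and KCl moved it little. At DIV7 it held 332 and 324 CPM at rest and 359.9 and 361 CPM under KCl. The groups did not overlap, and the mean was 1.10-fold higher under KCl, but the log2 fold change of 0.14 (SE 0.04) missed the threshold (adjusted p = 0.0511). It passed with median-of-ratios size factors (0.15, adjusted p = 0.0445).

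In NT, Arnt2 held 166 and 165 CPM at rest and 171 and 214 CPM under KCl, which did not overlap (log2 fold change 0.22, SE 0.13, adjusted p = 1.00). KO with vector held 178, 161 and 151 CPM at rest and 136, 164 and 156 CPM under KCl (-0.10, SE 0.11, adjusted p = 0.787). KO with WT held 175 and 145 CPM at rest and 149, 187 and 154 CPM under KCl (0.03, SE 0.12, adjusted p = 0.992). NT under KCl was thus highest in mean among DIV18 groups (193 CPM) and KO with S586A under KCl lowest (137 CPM). Neighbouring groups in that order overlapped, with the exception of NT at rest (164.5 to 165.7 CPM) and KO with S586E at rest (176 to 193 CPM).

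At DIV7 the TPM of Arnt2 was split mainly between Arnt2-201 (6151 bases) and Arnt2-207 (6047 bases). Arnt2-201 held 38.4% to 49.3% and Arnt2-207 29.9% to 45.9% of the gene's TPM there. At DIV18 Arnt2-201 held 9.0% to 46.1% and Arnt2-207 29.3% to 57.3%. A further coding form, Arnt2-213 (6228 bases), held 0.2% to 0.6% in the 4 DIV7 libraries and 3.9% to 26.3% in the 20 DIV18 libraries, with no overlap. Age, library kind, guide RNA and DMSO differ together here, and their parts in this difference cannot be told apart. The shares are estimates for forms that share exons. The antisense gene Gm30873 overlaps an Arnt2 exon and held 0 to 12 counts per library. Whether the counting used strand was not given in the sources used here.

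Npas3 lies on chromosome 12 at 53248677-54072175 on the plus strand, with 4 annotated transcripts. KCl gave no call for it in any culture. At DIV7 it held 9.26 and 11.7 CPM at rest and 8.42 and 11.5 CPM under KCl (log2 fold change -0.07, SE 0.18, adjusted p = 0.834). In NT it held 11.5 and 11.9 CPM at rest and 10.00 and 13.2 CPM under KCl (-0.01, SE 0.25, adjusted p = 1.00). KO with vector held 11.4, 9.97 and 6.05 CPM at rest and 6.91, 7.94 and 7.43 CPM under KCl (-0.31, SE 0.22, adjusted p = 0.647). KO with WT held 12.1 and 8.02 CPM at rest and 8.51, 10.0 and 6.53 CPM under KCl (-0.27, SE 0.23, adjusted p = 0.977). With length offsets the values were 0.57 at DIV7 and -0.87 in KO with WT, both uncalled. Resting and KCl libraries overlapped in each of these 4 cultures.

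**Figure D4:**
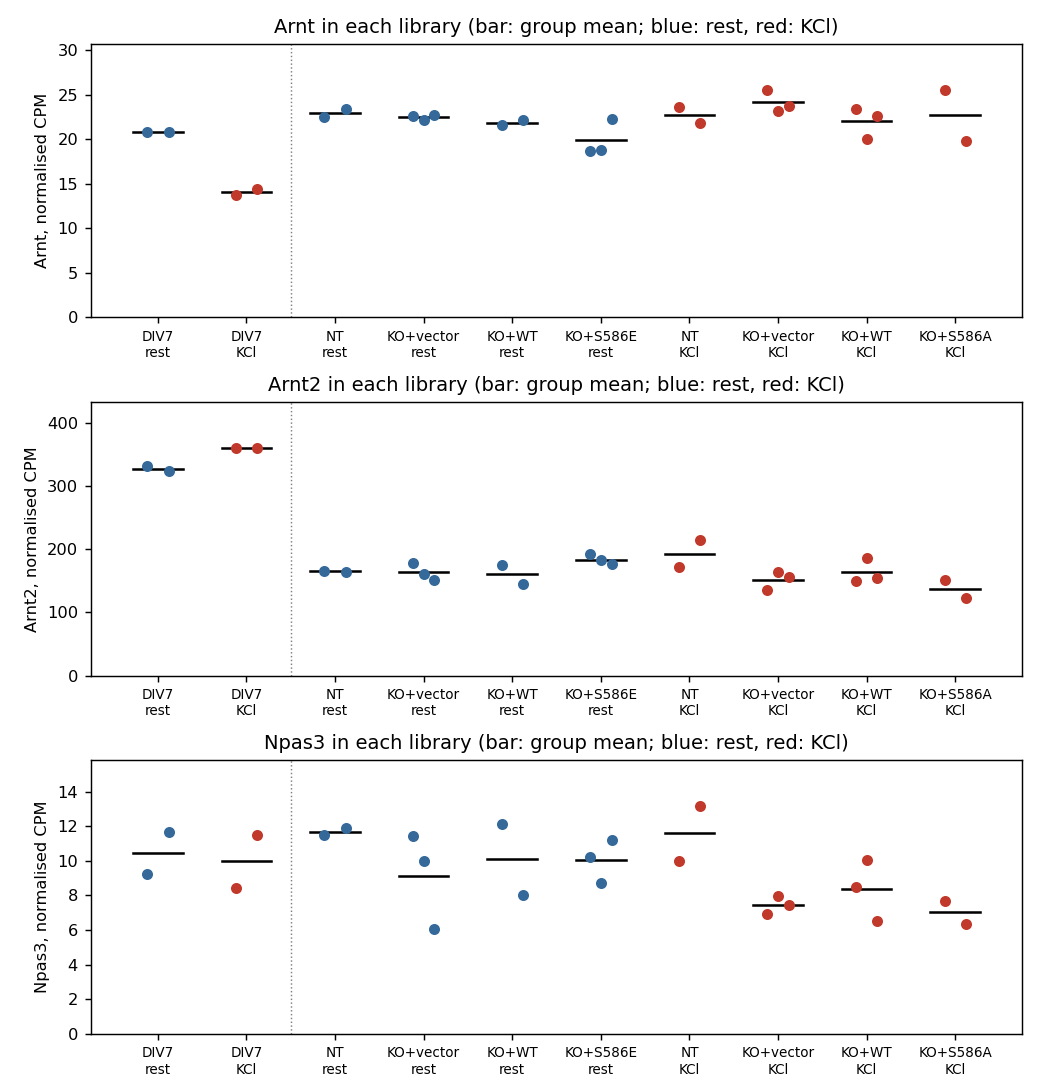
Arnt, Arnt2 and Npas3 in each of 24 libraries, in TMM-normalised CPM from 0, by group; points are libraries and bars are group means, with DIV7 left of the dotted line and normalised apart. Arnt drops from 20.8 to 13.7 and 14.4 CPM at DIV7 and lies between 18.7 and 25.6 CPM at DIV18.

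The loss of Smarcc2 gave no call for Arnt, Arnt2 or Npas3. In KO with vector against NT, edgeR called 0 of the 4 genes at rest, with 0 at an unadjusted p under 0.05 and 0 by DESeq2, where 5.9% of all genes tested were called. Under KCl it called 0 of the 4, with 2 at an unadjusted p under 0.05 and 0 by DESeq2, where 2.67% were called. The 2 were Arnt2 and Npas3. Arnt2 differed by -0.34 (SE 0.12, adjusted p = 0.152) and Npas3 by -0.64 (SE 0.24, adjusted p = 0.163). Under KCl, Arnt2 held 136 to 164 CPM in the 3 KO with vector libraries and 171 and 214 CPM in NT. Npas3 held 6.91 to 7.94 CPM and 10.00 and 13.2 CPM in the same libraries. How many of all genes separate these libraries in this way was not counted.

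Markers of several cell types, neurons among them, lay lower beside the lower Arnt2 and Npas3 values of KO with vector under KCl. The summed TPM of 5 neuron markers under KCl was 951 to 1025 in KO with vector and 1066 and 1120 in NT. Of these 5, 0 had a log2 fold change above 0 and edgeR called 1 lower, where 2.67% of all genes were called. The sum of 4 excitatory neuron markers overlapped, at 726 to 803 and 782 and 867. Under KCl the summed TPM of 5 astrocyte markers was 82.9 to 101 in KO with vector and 146 and 249 in NT, and that of 7 oligodendrocyte-lineage markers was 26.4 to 30.0 and 31.3 and 48.0. At rest the astrocyte sum was 198.5 and 200.0 in NT and 41.2 to 153 in KO with vector, and replicate 3, at 41.2, was also the lowest resting library for Npas3 (6.05 CPM). Of the 7 oligodendrocyte-lineage markers, edgeR called 3 lower in KO with vector than in NT under KCl, where 2.67% of all genes were called. Among the 7, 1 had a log2 fold change above 0. Pdgfra, Olig1 and Olig2 were lower (log2 fold changes -3.33, -2.57 and -2.18). The sum of 3 inhibitory neuron markers under KCl was 42.7 to 56.5 TPM in KO with vector and 67.3 and 86.3 TPM in NT, with 0 of 3 called by edgeR or DESeq2 and 2 at an unadjusted p under 0.05. The part of these markers in the Arnt2 and Npas3 values was not tested. Npas3's nearest patterns over the 20 DIV18 libraries were Sox6 (r = 0.921), a factor of glial progenitors and interneurons, Ifitm3 (r = 0.918), a membrane protein of the interferon response, and Epas1 (r = 0.907), a hypoxia-inducible factor of the same bHLH-PAS family.

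The addback constructs gave no call for these 3 genes either. KO with WT against KO with vector, S586E against WT and S586E against vector at rest, and S586A against WT and S586A against vector under KCl were tested for all 4 genes. In these comparisons and in KO with WT against KO with vector under KCl, edgeR called 0 of the 4, with 0 at an unadjusted p under 0.05 and 0 by DESeq2. Of all genes tested, 0.0143% were called in KO with WT against KO with vector at rest, 0.00955% in the same comparison under KCl, 0.0191% in S586E against vector, 0.00955% in S586A against vector and 0% in the comparisons of S586E and S586A with WT. Among Arnt, Arnt2 and Npas3, the largest difference by size in these comparisons was in S586A against WT under KCl, where Arnt2 (123 and 152 against 149 to 187 CPM) and Npas3 (6.36 and 7.67 against 6.53 to 10.0 CPM) each differed by -0.25, with SE 0.12 and 0.24 and adjusted p = 0.580 and 0.787.

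**Figure D5:**
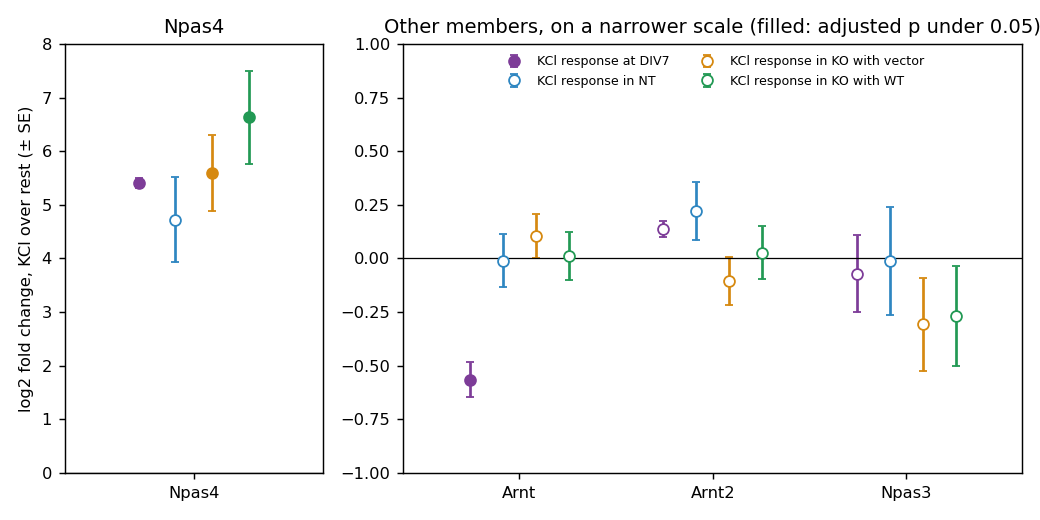
Log2 fold change of KCl over rest with its SE for the 4 genes in 4 cultures; filled points passed an adjusted p under 0.05 in edgeR, open points did not, and Arnt, Arnt2 and Npas3 have a narrower axis. Npas4 lies between 4.73 and 6.63, and the values of the other genes lie between -0.57 and 0.22.

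Set side by side per transcript length and summed over its annotated forms, Npas4 went from a small fraction of Arnt2 to near its level at DIV7. In TPM, the DIV7 resting libraries held 2.09 and 2.81 of Npas4, 13.9 and 13.0 of Arnt and 120 and 118 of Arnt2. Npas4 thus stood at 1.74 and 2.38 per 100 of Arnt2. Under KCl the TPM of Npas4 was 101.2 and 102.5 and that of Arnt2 121 and 126, or 83.5 and 81.1 per 100. At DIV18 Npas4 per 100 of Arnt2 was 0.466 to 1.55 over 10 resting libraries and 9.56 to 106 over 10 KCl libraries, with a median of 47.3. It passed Arnt2 in 1 of them, KO with WT replicate 1. The coding form Npas4-201 alone was lower, at 50.8 and 54.6 TPM under KCl at DIV7. In KO with WT replicate 1 under KCl it held 8.51 TPM, against 30.0 TPM for all forms of Arnt2.

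Arnt2 exceeded Arnt in TPM in every library. The ratio was 8.65 and 9.06 at rest at DIV7 and 13.9 and 15.6 under KCl, as Arnt fell from 13.9 and 13.0 to 8.74 and 8.12 TPM. At DIV18 the ratio ranged from 3.42 to 6.96, and resting (median 4.91) and KCl libraries (median 4.67) overlapped. Npas3 TPM included Npas3-202, a transcript of 214 bases with at most 7.88 estimated counts in any library. Without that transcript Npas3 held 3.08 to 4.16 TPM at DIV7 and 0.985 to 2.24 TPM at DIV18, below Arnt in every library.

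Over the 20 DIV18 libraries, the nearest patterns to Arnt were Slc22a5 (r = 0.789), a carnitine transporter, Lipa (r = 0.784), the lysosomal acid lipase, and Fbn1 (r = 0.775), a matrix protein. The nearest to Arnt2 were Sox1ot (r = 0.869), a noncoding RNA gene, Pde1a (r = 0.861), a calmodulin-dependent phosphodiesterase, and Tenm4 (r = 0.842), a teneurin. These r are Pearson's on log2(CPM + 0.5), over libraries that share groups and preparation, and are descriptions. Of the 3 genes nearest to each, none for Arnt, 1 for Arnt2 and none for Npas3 were again among the top 3 within the 10 KCl libraries.

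Other genes of the pathway were taken from 6 lists. At DIV7, 18 of their 60 tested genes rose and 3 fell, beside 7.34% and 9.67% of all genes, and their median log2 fold change was 0.10 (all genes, -0.0014). Among 13 tested bHLH-PAS relatives, the coactivators Ncoa3 (0.29), Ncoa1 (0.26) and Ncoa2 (0.24) rose. Ahr, the dioxin receptor and an Arnt partner, fell by 1.22 on the log2 scale (SE 0.12, adjusted p = 0.00151), from a mean of 10.3 to 4.40 CPM. Of 7 known targets of Npas4, 3 rose: Bdnf (1.12), the neurotrophin, Rgs2 (0.91), a regulator of G-protein signalling, and Plk2 (0.36), a synaptic kinase.

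Of 7 genes that act upstream of Npas4, 4 rose at DIV7: Srf (0.57), Cacna1d (0.54), Mef2a (0.21) and Mef2c (0.16). Of all genes tested there, 7.34% were called higher and 9.67% lower. Cacna1c, an L-type calcium channel like Cacna1d, fell by 0.23. The NuA4 acetyltransferase complex, described as a partner of Npas4 in neurons, had 18 members tested. Of these Ing3 (0.65), Trrap (0.21), Morf4l2 (0.19) and Morf4l1 (0.15) rose, and Mrgbp fell by 0.93. The log2 fold change was above 0 for 7 of the 18, with a median of -0.033, so the complex did not rise as a set.

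At DIV18, none of the 62 genes of these lists that were tested was called by edgeR in the KCl response of NT (3 at an unadjusted p under 0.05, 0 by DESeq2). These counts were 0, 14 and 1 in KO with vector and 0, 1 and 0 in KO with WT. Of all genes tested, 4.33%, 10.3% and 4.97% had an unadjusted p under 0.05 in NT, KO with vector and KO with WT. Bdnf had log2 fold changes of 0.51, 0.04 and 0.55 in these 3 cultures, Rgs2 of 0.43, -0.20 and 0.13, and Plk2 of 0.10, 0.07 and 0.06. At rest, 4 of the 62 were higher and 5 lower in KO with vector than in NT, beside 2.13% and 3.77% of all genes. Among them were the Npas4 targets Syt10 (1.15) and Rgs2 (0.98), both higher, with Epc1 of the NuA4 complex (0.36). Mef2a was lower (-0.34). Under KCl Syt10 was again higher (0.95).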

How the data were processed

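RNA sequencing of 24 libraries was analysed from the deposited transcript tables, whose columns, per the file headers, are those written by kallisto (also named, with FastQC and cutadapt, in the submitters' processing notes; versions and genome build were not given in the sources used here). The estimated counts deposited by the authors need not be whole. The TPM values deposited by the authors allow for each transcript's effective length and sum to the same total in every library. The effective length, a further column per the file headers, served for length offsets. Of 142552 transcripts, 141429 (99.2%) matched GENCODE M21, and the unmatched held at most 0.467% of a library's counts.

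Estimated counts were summed per gene, rounded and tested in edgeR 4.0.16 (quasi-likelihood, two-sided; R 4.3.3, limma 3.58.1) with TMM, filterByExpr and Benjamini-Hochberg adjustment over all genes tested. Calls are at adjusted p under 0.05. The 4 DIV7 libraries (19822 genes, 2 residual degrees of freedom), the 20 DIV18 libraries in 8 groups (20940 genes, 12) and, for the contrast between ages, all 24 (22459 genes, 14) were fitted separately. All adjusted p-values in the text are from these fits unless another tool is named, and the scripts were tested on simulated data. DESeq2 1.42.0, other scalings, no filter, length offsets, a prior count of 2, only the groups compared, a replicate block and leaving out each library were alternatives. A block with only the groups compared, likeness within KCl libraries and Npas3 TPM without its shortest transcript were added after seeing the data.

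The members and the lists were chosen with earlier results of these data known. Named were the 4 genes, Smarcc2, 6 early genes, list genes called in a comparison (up to 8 a list, by size of fold change) and the 3 genes most correlated with each member over the DIV18 libraries, with a mean of at least 1 CPM and no predicted-gene symbol. Bdnf, Rgs2 and Plk2 at DIV18 were named because they were called at DIV7. Stimulation for 10 min, named in the series' design, was not analysed here. Protein sequences were not used here. One gene of the lists is not reported here by name or value.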

Additional observations from a re-analysis of the deposited data

Results flagged for a closer look

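For 7 genes of the lists, the KCl response at DIV7 differed from that of NT at DIV18 by a test of the difference itself (edgeR, all 24 libraries, where 1.82% of 22459 genes were called). Ahr, the dioxin receptor, which pairs with Arnt, differed by -1.18 (SE 0.26, adjusted p = 0.0150): its log2 fold change was -1.22 at DIV7 and -0.02 in NT. Mrgbp, a NuA4 subunit, differed by -1.22 (SE 0.25, adjusted p = 0.00854). The early genes Fosb (4.85), Nr4a1 (4.26), Fos (3.88), Egr1 (3.48) and Junb (3.38) had larger rises at DIV7. For Npas4 the same difference was 0.69 (SE 1.06) and was not called. Age, library kind, guide RNA and DMSO cannot be told apart in these differences.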

How the results depend on the processing

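The 64 log2 values for the 4 genes in 16 comparisons were recomputed in 801 alternatives. In 716 they kept their sign and their side of the threshold, in 11 a call was gained, in 3 one was lost, and in 71, over 31 values, the sign turned while neither value was called. No called value turned. Npas4 in NT passed with DESeq2 (4.74), with no low-count filter (4.73, where its SE was 0.20 against 0.79; the cause was not tested), with a replicate block (4.62, adjusted p = 0.00500) and with the replicate block in only the groups compared (4.63). Leaving out a library gave 3.38 to 5.40 in NT, with a call only without KCl replicate 2. Arnt2 at DIV7 passed when scaled by median-of-ratios size factors (0.15) and under the replicate block (0.14, adjusted p = 0.00367). With no low-count filter, Npas4 passed in KO with WT minus NT responses (1.90) and in KO with WT against KO with vector under KCl (0.57), and Arnt2 (-0.36) and Npas3 (-0.65) passed in KO with vector against NT under KCl. The cause was not tested. Npas4 in KO with WT was lost in only the groups compared (6.64) and without either resting library, with 5.79 to 7.06 over the 5 libraries left out. A group left with 1 library was assumed to vary like the others.

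Sign turns among uncalled values were as follows. With length offsets, Npas3 gave 0.57 in the DIV7 response, 0.25 in the NT response, -0.53 in KO with WT minus KO with vector responses and 0.33 in DIV7 minus NT responses. Without a sign turn, it moved to -0.87 in the KO with WT response (from -0.27) and to -1.12 in KO with WT minus NT responses (from -0.26). It gave 0.34 and 0.36 in S586A against WT and against vector, and -0.0010 in S586E against vector. With the same offsets Npas4 gave 0.14 in S586E against vector, Arnt -0.016 in the KO with WT response and 0.017 in S586A against vector, and Arnt2 0.012 in KO with vector against NT and 0.015 in KO with WT against KO with vector at rest. Npas3 in S586E against WT gave 0.0024 with median-of-ratios scaling, 0.0017 with DESeq2 and 0.086 with the replicate block. The KO with WT response of Arnt was -0.00031 with no filter, -0.016 with the replicate block and -0.0092 with the block in only those groups. The block also gave -0.0035 for Arnt in KO with WT minus NT responses, 0.010 for Arnt2 in KO with vector against NT at rest and -0.10 for Npas4 in S586A against vector. For the causes of these turns no test was made. Leaving out each library in turn spanned 0 for the following. For Npas4 these ranges were -1.10 to 0.017 in KO with vector against NT at rest, -0.50 to 0.35 in KO with S586E against KO with vector at rest, -0.030 to 0.63 in KO with S586E against KO with WT at rest, -0.46 to 1.56 in KO with vector against NT under KCl, -0.28 to 1.00 in KO with WT against KO with vector under KCl and -0.75 to 0.53 in KO with S586A against KO with WT under KCl. For Arnt these ranges were -0.071 to 0.042 in the KCl response in NT, -0.032 to 0.084 in the response of KO with WT minus that of NT, -0.063 to 0.00064 in KO with vector against NT at rest, -0.034 to 0.074 in the KCl response in KO with WT, -0.28 to 0.097 in KO with S586A against KO with vector under KCl and -0.14 to 0.23 in KO with S586A against KO with WT under KCl. For Arnt2 these ranges were -0.079 to 0.039 in KO with vector against NT at rest, -0.0058 to 0.27 in the response of KO with WT minus that of KO with vector and -0.16 to 0.11 in KO with WT against KO with vector at rest. Further ranges for Arnt2 were -0.11 to 0.17 in the KCl response in KO with WT, -0.0012 to 0.17 in KO with WT against KO with vector under KCl, -0.30 to 0.014 in KO with S586A against KO with vector under KCl and -0.22 to 0.097 in the response at DIV7 minus that of NT at DIV18. For Npas3 these ranges were -0.31 to 0.14 in the KCl response at DIV7, -0.23 to 0.17 in the KCl response in NT, -0.53 to 0.073 in the response of KO with WT minus that of NT, -0.24 to 0.36 in the response of KO with WT minus that of KO with vector and -0.19 to 0.41 in KO with WT against KO with vector at rest. Further ranges for Npas3 were -0.093 to 0.32 in KO with S586E against KO with vector at rest, -0.54 to 0.058 in the KCl response in KO with WT, -0.28 to 0.32 in KO with S586E against KO with WT at rest, -0.21 to 0.061 in KO with S586A against KO with vector under KCl and -0.29 to 0.19 in the response at DIV7 minus that of NT at DIV18.

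Same-numbered libraries did not deviate together throughout: the correlations of their deviations were 0.02 at DIV7, -0.05 in NT, 0.07 to 0.24 in KO with vector and -0.04 to -0.03 in KO with WT. In KO with vector, libraries of different numbers gave -0.23 to 0.13, which overlaps the range of the same numbers. The numbers were not taken as a pairing, and the replicate block was run as an alternative. Over all genes the replicate block called 8 in NT, 16 in KO with vector and 12 in KO with WT, against 2, 15 and 9 without it. Among the 4 genes it changed the calls of Npas4 in NT and of Arnt2 at DIV7, and no other. Depth limits Npas4 at rest at DIV18, where 9 to 40 counts lie behind each value.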

Other observations

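Arnt and Arnt2 also pair with the hypoxia-inducible factors, and a list of 10 hypoxia-response targets was followed for that reason. At DIV7, 2 of 9 tested genes rose under KCl, beside 7.34% of all genes, Adm (1.84), a vasodilator peptide, and Vegfa (0.29), the endothelial growth factor. At DIV18 edgeR called 0 of 10 in the KCl responses of NT, KO with vector and KO with WT, where 2, 6 and 0 had an unadjusted p under 0.05 and DESeq2 called 0, 1 and 0. Of all genes, 4.33%, 10.3% and 4.97% had an unadjusted p under 0.05 there. The fitted log2 fold changes were above 0 for 0 of 10 genes in NT (median -0.34), for 10 of 10 in KO with vector (median 0.71) and for 2 of 10 in KO with WT (median -0.05), beside medians of all genes of -0.0049, -0.0049 and 0.0043. NT and KO with vector are separate libraries, and the difference between these responses called 0 of 10 by edgeR and by DESeq2, with 7 at an unadjusted p under 0.05, beside 8.81% of all genes.

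At rest, KO with vector against NT called 4 of the 10 lower and 1 higher, beside 3.77% and 2.13% of all genes. Egln3 (-1.90), Slc2a1 (-1.30), Bnip3 (-1.06) and Ldha (-0.63) were lower, an oxygen-sensing hydroxylase, a glucose transporter, a mitochondrial protein and lactate dehydrogenase. Slc2a1 had a mean of 83.2 CPM in NT at rest and 33.7 in KO with vector, 36.4 in S586E and 70.3 in WT. For KO with WT against KO with vector at rest, edgeR called 0 of the 10 higher and 1 lower (0.0143% of all genes called). DESeq2 called 3 there, and 7 had an unadjusted p under 0.05, beside 11.1% of all genes. For S586E against WT, edgeR called 0 of the 10 (0% of all genes). DESeq2 called 4, and 9 had an unadjusted p under 0.05, beside 12.9% of all genes. Under KCl, KO with vector against NT was above 0 for 10 of 10 (median 0.42). Here edgeR called 1 higher and 0 lower, 3 had an unadjusted p under 0.05 and DESeq2 called 2. Pgk1, a glycolytic enzyme, was higher in KO with vector than in NT by 1.24 at rest and 1.63 under KCl. Its means were 1280 and 1521 CPM in KO with vector and 449 to 633 CPM in the other DIV18 groups. At rest, 2 of the 10 genes were above 0 in KO with vector against NT (median -0.64). Why Pgk1 was high in KO with vector only was not tested.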
